A study of Mus musculus with 2 samples.

Results

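The genes of transforming growth factor beta (TGF-beta) and bone morphogenetic protein (BMP) signalling were followed in mouse lung that received interleukin 17B (IL-17B) from an adenovirus. They were matched by symbol, and the set was chosen with earlier results of these data known. The match took in the ligands named Tgfb, Bmp, Gdf and Inhb, their receptors (Tgfbr, Bmpr, Acvr) and the latent-binding proteins (Ltbp). It also took in the Smad and Smurf genes, secreted antagonists with the follistatin-like genes, and Id1 to Id4. Of the 17943 genes in the deposited table, 63 matched. Values are FPKM, fragments scaled by transcript length and library size, which allows levels to be set side by side between genes. Of the 63 genes, 55 had a mean of at least 0.5 FPKM over the libraries and are called measured. The other 8 are given by value only. Among both the 63 and the 55 are 3 genes, Bmp1 (a procollagen protease), Bmp2k (a protein kinase) and Tgfbrap1 (a receptor-associated adaptor), that match by symbol only and are not ligands, receptors or SMADs.

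Mice in both groups were wild-type C57BL/6 animals of 6 to 8 weeks that were dosed through the nose for 3 days before whole lung was taken for total RNA. The virus carried IL-17B in the Adv-IL-17B group (n = 1 library) and was an empty vector in the Adv-EV group (n = 1 library). The design text speaks of triplicates, whereas the table holds 1 column per group, and the sources used here do not say whether RNA of several mice was pooled. A single library per group leaves no replicate spread to test against, and each difference stands without a replicate check. Il17b had 93.2 FPKM under Adv-IL-17B and a listed 0 under Adv-EV, where a 0 allows up to 0.786 FPKM. The mice kept their own Il17b gene, and the values do not tell vector from mouse transcripts. Lung identity was clear from the alveolar type 2 cell marker Sftpc, at 11922 FPKM in Adv-IL-17B and 20844 FPKM in Adv-EV. From the steps in the low values, each library held about 5520000 (Adv-IL-17B) or 5510000 (Adv-EV) fragments. All intervals below are exact Clopper-Pearson 95% intervals on the estimated fragments, turned into a ratio, and cover counting error only. In whole lung, fewer cells of a type and less RNA per cell cannot be told apart.

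Ligands of this family are secreted dimers that bring together type I and type II receptor kinases. The type I receptor then phosphorylates receptor SMADs, which join SMAD4 and regulate genes in the nucleus. The TGF-beta and activin branch runs through SMAD2 and SMAD3 and the BMP branch through SMAD1, SMAD5 and SMAD9, while SMAD6 and SMAD7 inhibit the pathway. TGF-beta is stored in the matrix as a latent complex bound to LTBP proteins and must be released before it can signal. In lung the pathway is known for its parts in matrix production, vessel maintenance and branching of the airways.

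Most measured members were lower in the Adv-IL-17B library, by modest amounts. Of the 55, 37 had a log2 ratio below 0 (67.3%), where 50.8% of all 15056 measured genes did, and 18 had one above 0 (background 48.6%). A log2 ratio here is that of FPKM + 0.1 between Adv-IL-17B and Adv-EV, positive where Adv-IL-17B is higher, a scale that understates the difference of low genes. The median log2 ratio of the members was -0.27, with an interquartile range from -0.47 to 0.14, and that of all measured genes was -0.01, with a range from -0.24 to 0.23. By a size rule of 2-fold, 3 members were higher (5.45%, background 3.95%) and 3 were lower (5.45%, background 2.68%), so members past 2-fold were few in both directions. By a rule of 1.5-fold, 4 were higher (background 9.46%) and 11 lower (background 8.23%). Past 2-fold, the higher members were Gdf15, Inhba and Fst, and the lower ones Ltbp4, Gdf10 and Gdf11. The counting interval lay above equal levels for 11 members (20%, background 17.3%) and below them for 23 (41.8%, background 16.4%). Among the 40 members with a mean of at least 5 FPKM, where counting error is smaller, 8 intervals lay above (20%, background 21.6%) and 20 below (50%, background 19.1%).

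**Figure D1:**
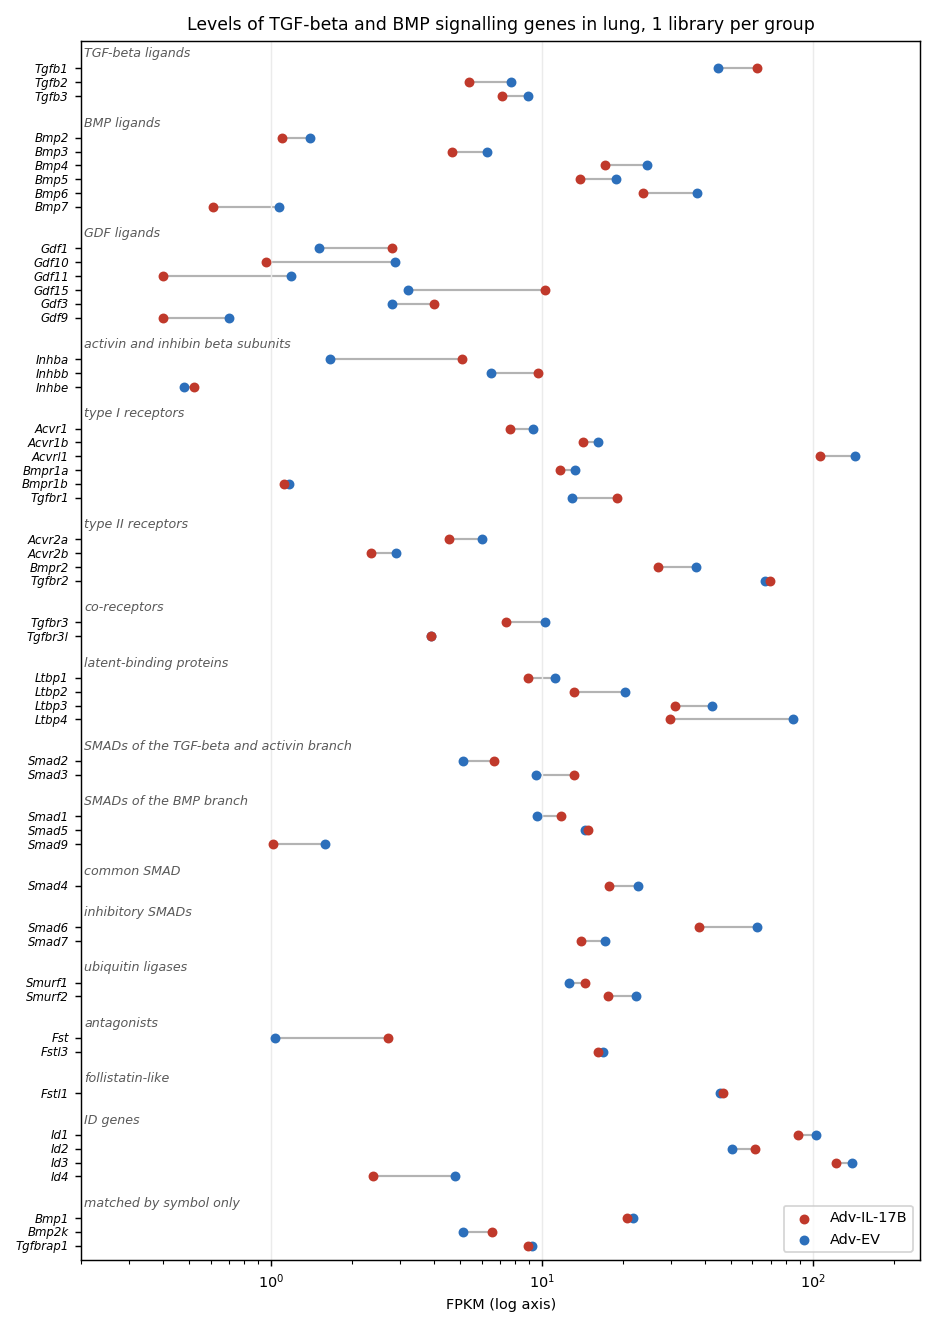
Level of the measured genes described in the text, in FPKM on a log axis, in the Adv-IL-17B library (red) and the Adv-EV library (blue), grouped by role, with a grey line joining the values of a gene. Red points lie left of blue in all 6 BMP ligands and all 4 latent-binding proteins, and right of blue in the 3 activin and inhibin subunits and in Smad2 and Smad3.

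**Figure D2:**
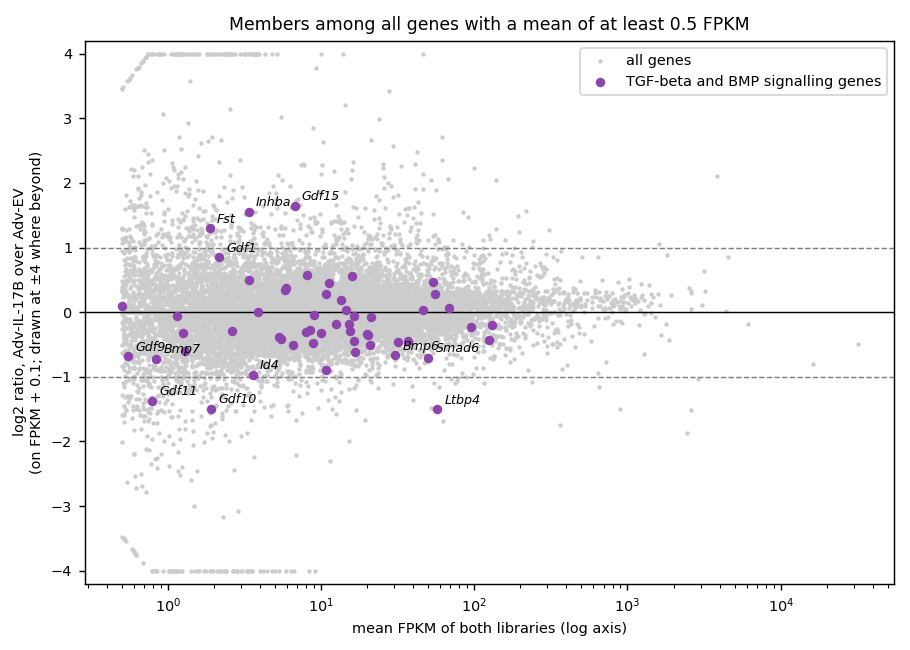
Log2 ratio of Adv-IL-17B over Adv-EV (vertical axis) against mean FPKM on a log axis for 15056 genes (grey) with the 55 measured members in purple. Dashed lines mark 2-fold; Gdf15, Inhba and Fst lie above them and Ltbp4, Gdf10 and Gdf11 below.

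Among the TGF-beta ligands, the abundant Tgfb1 was higher and its relatives were lower in the Adv-IL-17B library. Tgfb1 stood at 62.2 FPKM in Adv-IL-17B and 44.8 FPKM in Adv-EV, 1.39-fold higher (interval 1.24 to 1.55). Tgfb2 stood at 5.41 FPKM in Adv-IL-17B and 7.72 FPKM in Adv-EV, 1.43-fold lower (interval 1.16 to 1.77). Tgfb3 stood at 7.12 FPKM in Adv-IL-17B and 8.87 FPKM in Adv-EV, with an interval that included equal levels. Tgfb1 thus made up 83.2% of the summed FPKM of the 3 genes in Adv-IL-17B and 73.0% in Adv-EV. Tgfb1 is made by many cell types, leukocytes and platelets among them.

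The latent-binding proteins held the clearest difference of the set. All 4 Ltbp genes were lower in Adv-IL-17B with intervals that excluded equal levels, and their summed level was 83.0 FPKM in Adv-IL-17B and 158.7 FPKM in Adv-EV. Ltbp4, which binds latent TGF-beta1 and is needed for elastic fibre assembly in lung, stood at 29.8 FPKM in Adv-IL-17B and 84.7 FPKM in Adv-EV. That is 2.84-fold lower (interval 2.63 to 3.07), on about 887 fragments in Adv-IL-17B and 2513 in Adv-EV. It is the most precisely counted of the 2-fold differences. Among the 1424 genes of the table with a mean at least that of Ltbp4, 6 had a ratio as low or lower, Ltbp4 included. The other 5 were the globin genes Hba-a1, Hbb-bt, Hbb-bs and Hba-a2 and the clock output gene Dbp. In the Adv-EV library Ltbp4 was the most abundant Ltbp gene, at 53.4% of their summed FPKM, and it held 35.9% in Adv-IL-17B, where Ltbp3 stood slightly above it. Set against the ligand, Ltbp4 had 0.479 times the FPKM of Tgfb1 in Adv-IL-17B and 1.89 times in Adv-EV.

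The other latent-binding genes differed less. Ltbp2, a matrix protein that does not bind latent TGF-beta, stood at 13.1 FPKM in Adv-IL-17B and 20.25 FPKM in Adv-EV, 1.54-fold lower (interval 1.37 to 1.73). Ltbp3 stood at 31.2 FPKM in Adv-IL-17B and 42.6 FPKM in Adv-EV, 1.37-fold lower (interval 1.25 to 1.49). Ltbp1 stood at 8.91 FPKM in Adv-IL-17B and 11.2 FPKM in Adv-EV, 1.26-fold lower (interval 1.09 to 1.46). Short stretches of Ltbp2 and Ltbp3 exons, 9.34% and 2.01% of their bases, overlap a gene on the opposite strand, and without known strand handling those reads cannot be told apart.

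All 6 measured BMP ligands had a log2 ratio below 0, 4 of them with an interval that excluded equal levels. Their median was -0.48, and the summed level of all 9 BMP ligands in the table was 61.2 FPKM in Adv-IL-17B and 89.6 FPKM in Adv-EV. Bmp6, a ligand known for the control of hepcidin and made by endothelium in several organs, was the most abundant, at 23.6 FPKM in Adv-IL-17B and 37.5 FPKM in Adv-EV. It was 1.59-fold lower (interval 1.42 to 1.79). Of its exonic bases, 5.74% overlap the more abundant gene Txndc5 on the opposite strand, whose reads there cannot be told apart from those of Bmp6. Bmp4, a growth factor of lung mesenchyme, stood at 17.1 FPKM in Adv-IL-17B and 24.4 FPKM in Adv-EV, 1.43-fold lower (interval 1.18 to 1.72). Bmp5 stood at 13.8 FPKM in Adv-IL-17B and 18.9 FPKM in Adv-EV, 1.36-fold lower (interval 1.17 to 1.59). Part of the Bmp5 exons, 46.7% of their bases, overlaps the gene model Gm26903 on the opposite strand, so its reads are uncertain. Bmp3, which antagonises other BMPs, stood at 4.66 FPKM in Adv-IL-17B and 6.27 FPKM in Adv-EV, 1.35-fold lower (interval 1.10 to 1.65). Bmp2 (1.10 FPKM in Adv-IL-17B, 1.40 in Adv-EV) and Bmp7 (0.61 FPKM in Adv-IL-17B, 1.07 in Adv-EV) rested on 12 to 27 fragments, and their intervals included equal levels. Bmp8a and Bmp15 were listed at 0.10 and 0.06 FPKM in Adv-IL-17B and at 0 in Adv-EV, on about 1 fragment each. Bmp8b, a close paralogue of Bmp8a, stood at 0.23 FPKM in Adv-IL-17B and 0.09 FPKM in Adv-EV.

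The growth differentiation factors diverged, and 3 of the 6 members past 2-fold belong here. Gdf15, a cytokine gene induced by cell stress, stood at 10.25 FPKM in Adv-IL-17B and 3.20 FPKM in Adv-EV, 3.20-fold higher (interval 2.07 to 5.15). Its ratio was reached or passed by 1.49% of all measured genes. Gdf10, the relative of Bmp3, stood at 0.96 FPKM in Adv-IL-17B and 2.88 FPKM in Adv-EV, 3.0-fold lower (interval 1.92 to 4.74) on about 28 and 83 fragments. Gdf11, the close relative of myostatin, stood at 0.40 FPKM in Adv-IL-17B and 1.19 FPKM in Adv-EV, 2.98-fold lower (interval 1.37 to 7.27). Gdf11 rested on about 9 fragments in Adv-IL-17B and 27 in Adv-EV. With a pseudocount of 1 FPKM the log2 ratio was -0.99 for Gdf10 and -0.65 for Gdf11, inside 2-fold. Gdf15 made up 53.7% of the summed FPKM of the GDF genes in Adv-IL-17B and 24.4% in Adv-EV.

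The remaining GDF genes were low. Gdf1 stood at 2.80 FPKM in Adv-IL-17B and 1.51 FPKM in Adv-EV, 1.85-fold higher (interval 1.07 to 3.17), but all of its exonic bases also belong to the overlapping gene Cers1 on the same strand, so the reads cannot be assigned to either. Gdf3 stood at 3.99 FPKM in Adv-IL-17B and 2.81 FPKM in Adv-EV, and Gdf9 at 0.40 FPKM in Adv-IL-17B and 0.70 FPKM in Adv-EV, and both intervals included equal levels. Gdf2, which encodes the circulating BMP9, stood at 0.06 FPKM in Adv-IL-17B and 0.24 FPKM in Adv-EV, Gdf5 at 0.23 FPKM in Adv-IL-17B and 0.46 FPKM in Adv-EV, and Gdf6 was listed at 0 in Adv-IL-17B and at 0.15 FPKM in Adv-EV. These 3 were under the filter, on at most 6 fragments in a library.

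Promoters of the members past 2-fold are shown for the 4 genes with a listed start that coincides with the start of a transcript in the table. Each runs from 250 bases before to 50 bases after the start, in RefSeq on GRCm38.p6, the assembly of mm10, 5′ to 3′ on the strand of the gene. Gdf15 lies at chr8:70632046-70632345 (minus strand), Ltbp4 at chr7:27333614-27333913 (minus), Gdf10 at chr14:33923337-33923636 (plus) and Gdf11 at chr10:128891669-128891968 (minus). They are printed because, in these windows, the 1 higher gene and the 3 lower ones differ in base composition. Capitals mark matches, on either strand, to any of 7 searched motifs.
Gdf15: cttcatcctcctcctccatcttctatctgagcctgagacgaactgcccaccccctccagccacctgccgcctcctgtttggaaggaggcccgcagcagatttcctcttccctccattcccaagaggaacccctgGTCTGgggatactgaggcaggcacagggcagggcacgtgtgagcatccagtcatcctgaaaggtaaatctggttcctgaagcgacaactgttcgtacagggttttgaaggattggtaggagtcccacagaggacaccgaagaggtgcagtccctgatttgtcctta
Ltbp4: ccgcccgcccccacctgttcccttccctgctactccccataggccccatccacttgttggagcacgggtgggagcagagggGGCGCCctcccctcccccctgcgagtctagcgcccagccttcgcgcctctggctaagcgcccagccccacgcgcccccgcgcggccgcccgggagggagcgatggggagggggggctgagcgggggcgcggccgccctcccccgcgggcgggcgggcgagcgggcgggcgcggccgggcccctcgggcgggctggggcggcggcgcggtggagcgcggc
Gdf10: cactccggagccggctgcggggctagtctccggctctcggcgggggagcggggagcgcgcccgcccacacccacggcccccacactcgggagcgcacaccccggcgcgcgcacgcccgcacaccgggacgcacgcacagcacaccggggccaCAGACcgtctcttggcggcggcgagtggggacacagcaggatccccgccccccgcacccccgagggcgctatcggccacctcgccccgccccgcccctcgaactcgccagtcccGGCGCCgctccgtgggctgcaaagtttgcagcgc
Gdf11: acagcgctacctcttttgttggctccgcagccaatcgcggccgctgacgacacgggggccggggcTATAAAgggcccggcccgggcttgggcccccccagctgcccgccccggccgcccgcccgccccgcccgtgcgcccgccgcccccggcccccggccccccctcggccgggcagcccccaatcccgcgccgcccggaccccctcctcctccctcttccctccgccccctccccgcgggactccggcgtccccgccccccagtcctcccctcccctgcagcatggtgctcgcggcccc
The promoters of the lower genes were 81.3% (Ltbp4), 77.3% (Gdf10) and 80.7% (Gdf11) G and C, that of Gdf15 was 56.0%, and the median of all 32851 listed promoters was 52.7%. The GC-rich SMAD element GGCGCC occurred once each in Ltbp4 and Gdf10, and in 11.9% of all promoters. The 58 promoters listed for 46 members had a median of 64.7% G and C, and 27.6% of them held GGCGCC, 50% CAGAC, 12.1% TATAAA, 1.72% TGAGTCA, 3.45% TGACGTCA, 1.72% the NF-kappaB site and 3.45% TGATGNAA. No account was taken of base composition in these shares. The short SMAD-binding element CAGAC, which 49.6% of all promoters hold, occurred once in Gdf15 (as its reverse complement) and once in Gdf10. The letters TATAAA, searched at any position of the window and held by 13.6% of all promoters, occurred in Gdf11 alone of the 4. No match was found in the 4 windows for the AP-1 site TGAGTCA (5.20% of all promoters), the cAMP response element TGACGTCA (1.79%), an NF-kappaB site (1.63%) or the ATF4 site TGATGNAA (3.97%). Ltbp4 has 3 listed starts and Gdf15 has 2, of which 1 each is printed, and the table does not separate their isoforms. On the minus strand the Gdf15 gene begins at 70632470 and the Ltbp4 gene at 27339720, so both printed windows lie inside their genes. The base composition and motif matches given for these genes hold for the printed start only. Promoters of Inhba and Fst are not shown.

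The activin genes Inhba and Inhbb and the antagonist gene Fst were higher, Inhba and Fst by at least 2-fold. Inhba, whose product dimerises to activin A, stood at 5.07 FPKM in Adv-IL-17B and 1.66 FPKM in Adv-EV, 3.05-fold higher (interval 1.64 to 6.06) on about 43 and 14 fragments. Inhbb, the subunit of activin B, stood at 9.69 FPKM in Adv-IL-17B and 6.49 FPKM in Adv-EV, 1.49-fold higher (interval 1.21 to 1.85). Inhbe was near equal, at 0.52 FPKM in Adv-IL-17B and 0.48 FPKM in Adv-EV, on about 15 and 14 fragments. Fst, which encodes the secreted protein follistatin that binds and neutralises activin, stood at 2.71 FPKM in Adv-IL-17B and 1.04 FPKM in Adv-EV, 2.61-fold higher (interval 1.44 to 4.99). With a pseudocount of 1 FPKM its log2 ratio was 0.86, inside 2-fold. Fst rested on about 42 fragments in Adv-IL-17B and 16 in Adv-EV. Both Inhba and Fst were higher. The FPKM of Inhba was 1.87 times that of Fst in Adv-IL-17B and 1.60 times in Adv-EV, a comparison on few fragments and without an interval. Inhba and Fst lie on chromosome 13 of the same assembly, Inhba on the plus strand from 16004256 to 16031609 and Fst on the minus strand from 114452262 to 114458989.

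The relatives of follistatin were near equal where they were abundant. Fstl3, a follistatin relative that binds activin, stood at 16.2 FPKM in Adv-IL-17B and 16.9 FPKM in Adv-EV. Fstl1, a secreted glycoprotein of mesenchyme, was the most abundant of this group, at 46.8 FPKM in Adv-IL-17B and 45.5 FPKM in Adv-EV (ratio 1.03, interval 0.940 to 1.13). The reads of Fstl3 are uncertain, since 47.3% of its exonic bases overlap Prss57 on the opposite strand. Fstl4, under the filter, stood at 0.40 FPKM in Adv-IL-17B and 0.17 FPKM in Adv-EV.

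The type I receptors were led by Acvrl1, the receptor ALK1 for BMP9 and BMP10 that is known chiefly from endothelium. Acvrl1 stood at 106 FPKM in Adv-IL-17B and 144 FPKM in Adv-EV, 1.35-fold lower (interval 1.28 to 1.43). Tgfbr1, the type I receptor of TGF-beta, went the other way, at 19.0 FPKM in Adv-IL-17B and 12.9 FPKM in Adv-EV, 1.47-fold higher (interval 1.3 to 1.67). Tgfbr1 was the only type I receptor with an interval above equal levels, and its FPKM relative to Acvrl1 was 0.179 in Adv-IL-17B and 0.0899 in Adv-EV. Acvr1b, the activin receptor ALK4, stood at 14.2 FPKM in Adv-IL-17B and 16.1 FPKM in Adv-EV. Bmpr1a stood at 11.7 FPKM in Adv-IL-17B and 13.2 FPKM in Adv-EV. Acvr1 (7.65 FPKM in Adv-IL-17B, 9.26 in Adv-EV) and Bmpr1b (1.12 FPKM in Adv-IL-17B, 1.17 in Adv-EV) likewise had intervals that included equal levels, and so did Acvr1b and Bmpr1a. Acvr1c was at 0.02 FPKM in Adv-IL-17B and listed at 0 in Adv-EV.

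Among the type II receptors, Bmpr2 and Acvr2a were lower with intervals that excluded equal levels, and Tgfbr2 and Acvr2b had intervals that included them. Tgfbr2, the TGF-beta receptor and the most abundant of the 4, stood at 69.5 FPKM in Adv-IL-17B and 66.6 FPKM in Adv-EV, a ratio of 1.04 with an interval of 0.992 to 1.10. Bmpr2, the BMP receptor mutated in heritable pulmonary arterial hypertension in humans, stood at 26.8 FPKM in Adv-IL-17B and 37.1 FPKM in Adv-EV, 1.38-fold lower (interval 1.3 to 1.47). Acvr2a stood at 4.56 FPKM in Adv-IL-17B and 6.01 FPKM in Adv-EV, 1.32-fold lower (interval 1.06 to 1.65), and Acvr2b at 2.35 FPKM in Adv-IL-17B and 2.91 FPKM in Adv-EV. Of the Acvr2a exonic bases, 7.84% overlap Orc4 on the opposite strand, and those reads cannot be told apart. Tgfbr3, the co-receptor betaglycan that presents TGF-beta2 and inhibin, stood at 7.38 FPKM in Adv-IL-17B and 10.3 FPKM in Adv-EV, 1.40-fold lower (interval 1.19 to 1.65). Tgfbr3l was near equal at 3.90 FPKM in Adv-IL-17B and 3.91 FPKM in Adv-EV, and 52.2% of its exonic bases overlap another gene model on the same strand. None of the 12 measured receptors and co-receptors was past 2-fold.

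**Figure D3:**
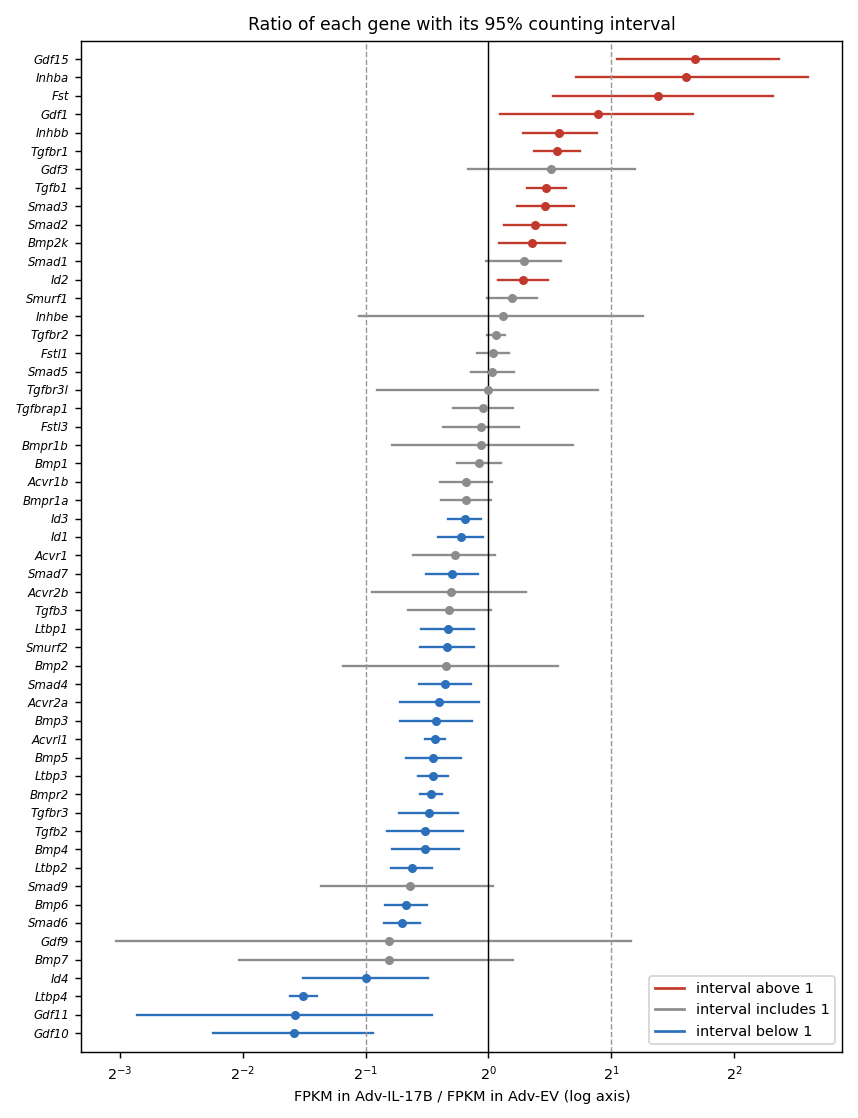
Plain FPKM ratio of Adv-IL-17B to Adv-EV (log axis) for the measured genes described in the text, in order of size, with the 95% counting interval as a line. Intervals above 1 are red (11 genes, Gdf15 at the top), below 1 blue and across 1 grey; dashed lines mark 2-fold, and that of Ltbp4 is the narrowest beyond them.

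Inside the cell, SMADs of the TGF-beta and activin branch were higher and inhibitory SMADs lower. Smad3 stood at 13.1 FPKM in Adv-IL-17B and 9.57 FPKM in Adv-EV, 1.37-fold higher (interval 1.17 to 1.62). Smad2 stood at 6.68 FPKM in Adv-IL-17B and 5.13 FPKM in Adv-EV, 1.3-fold higher (interval 1.09 to 1.55). The BMP-branch SMADs all had intervals that included equal levels. Smad5 stood at 14.8 FPKM in Adv-IL-17B and 14.5 FPKM in Adv-EV, Smad1 at 11.8 FPKM in Adv-IL-17B and 9.64 FPKM in Adv-EV, and Smad9 at 1.02 FPKM in Adv-IL-17B and 1.59 FPKM in Adv-EV. Smad4, the shared partner, stood at 17.75 FPKM in Adv-IL-17B and 22.7 FPKM in Adv-EV, 1.28-fold lower (interval 1.10 to 1.48).

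Smad6, the inhibitor that BMP signals induce in endothelium, was the most abundant SMAD gene in both libraries. It stood at 38.2 FPKM in Adv-IL-17B and 62.3 FPKM in Adv-EV, 1.63-fold lower (interval 1.47 to 1.80). Smad7, the inhibitor of both branches, stood at 14.0 FPKM in Adv-IL-17B and 17.2 FPKM in Adv-EV, 1.23-fold lower (interval 1.06 to 1.42). Relative to its BMP-branch targets Smad1 and Smad5 together, Smad6 was at 1.44 times in Adv-IL-17B and 2.58 times in Adv-EV. Of the ubiquitin ligases that mark SMADs and receptors for degradation, Smurf2 stood at 17.6 FPKM in Adv-IL-17B and 22.2 FPKM in Adv-EV, 1.26-fold lower (interval 1.08 to 1.47). Smurf1 stood at 14.4 FPKM in Adv-IL-17B and 12.65 FPKM in Adv-EV, with an interval that included equal levels.

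The Id genes, direct BMP targets that encode inhibitors of basic helix-loop-helix factors, differed little where they were abundant. Id3 stood at 122 FPKM in Adv-IL-17B and 139.5 FPKM in Adv-EV, 1.14-fold lower (interval 1.04 to 1.25). Id1 stood at 88.1 FPKM in Adv-IL-17B and 103 FPKM in Adv-EV, 1.17-fold lower (interval 1.03 to 1.33). Id2, which leukocytes also use, stood at 61.3 FPKM in Adv-IL-17B and 50.5 FPKM in Adv-EV, 1.21-fold higher (interval 1.05 to 1.40). Id4 stood at 2.39 FPKM in Adv-IL-17B and 4.78 FPKM in Adv-EV, 2.0-fold lower (interval 1.40 to 2.84) and just inside the size rule on FPKM + 0.1. When each column was divided by its own sum, its log2 ratio was -1.0027, just past the rule. Of the 3 genes that match by symbol only, Bmp2k stood at 6.54 FPKM in Adv-IL-17B and 5.12 FPKM in Adv-EV, 1.28-fold higher (interval 1.06 to 1.54). Of the Bmp2k exonic bases, 14.0% overlap Paqr3 on the opposite strand, and those reads cannot be told apart. Bmp1 (20.7 FPKM in Adv-IL-17B, 21.8 in Adv-EV) and Tgfbrap1 (8.92 FPKM in Adv-IL-17B, 9.20 in Adv-EV) were near equal.

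**Figure D4:**
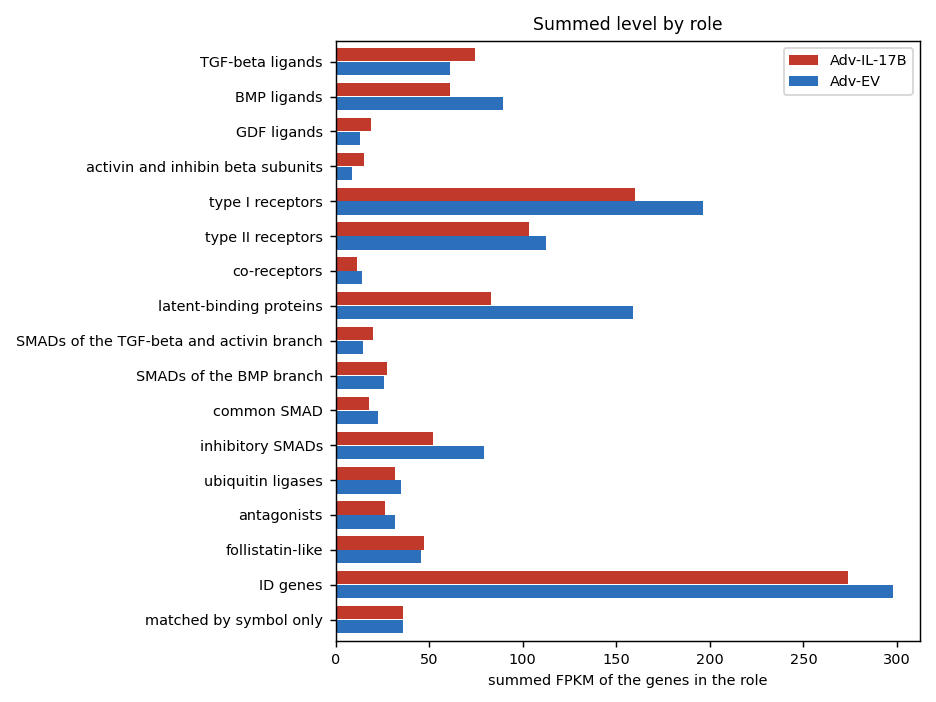
Summed FPKM of the genes in each role, Adv-IL-17B (red) above Adv-EV (blue), on an axis from 0. The widest gap in proportion among roles that were lower is that of the latent-binding proteins, 83.0 FPKM in Adv-IL-17B and 158.7 FPKM in Adv-EV.

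Pathway genes outside the symbol rule went in different directions by list. As background over all measured genes, the size rule called 3.95% higher and 2.68% lower, 48.6% had a ratio above 0 and 50.8% one below 0, and the counts of each list stand beside those shares. Of 23 measured TGF-beta response genes, 2 were at least 2-fold higher (Timp1 and Tgfbi) and 0 lower, and 16 had a ratio above 0, with a median log2 ratio of 0.26. Some lists share genes, so their counts are not separate. Col1a1, Col1a2 and Col3a1 of this list are also fibroblast markers, and Acta2 and Tagln are also smooth muscle markers. Tgfbi, a matrix protein gene that monocytes and macrophages also express, stood at 324 FPKM in Adv-IL-17B and 109 FPKM in Adv-EV. Timp1, a metalloproteinase inhibitor gene, stood at 165 FPKM in Adv-IL-17B and 35.3 FPKM in Adv-EV. Ctgf, the connective tissue growth factor gene, was lower, at 53.6 FPKM in Adv-IL-17B and 84.1 FPKM in Adv-EV. The canonical feedback genes Pmepa1 (19.3 FPKM in Adv-IL-17B, 19.5 in Adv-EV) and Skil (16.4 FPKM in Adv-IL-17B, 12.6 in Adv-EV) lay inside 1.5-fold.

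Of 7 measured BMP response genes, 0 were higher and 1 lower by the size rule, 6 had a ratio below 0, and the median log2 ratio was -0.54. The counting interval lay below equal levels for 3 of them (42.9%, background 16.4%) and included equal levels for 4. With a pseudocount of 1 FPKM the median was -0.32 and 0 genes were lower by the rule. Hey1 stood at 24.4 FPKM in Adv-IL-17B and 35.5 FPKM in Adv-EV, and Hamp, the hepcidin gene, was the 1 past the rule, at 0.47 FPKM in Adv-IL-17B and 1.89 FPKM in Adv-EV on about 1 and 4 fragments. Of 24 co-receptors and extracellular modulators, 0 were past the rule and 19 had a ratio below 0, with a median of -0.39. Eng, the endothelial co-receptor endoglin that works with Acvrl1, stood at 97.9 FPKM in Adv-IL-17B and 129 FPKM in Adv-EV. Of 16 genes of latent TGF-beta activation and storage, 1 was higher and 0 lower, and 13 had a ratio above 0, with a median of 0.36. The higher gene was Mmp9, also a neutrophil marker, at 14.2 FPKM in Adv-IL-17B and 7.0 FPKM in Adv-EV, and it came inside 2-fold with a pseudocount of 1 FPKM and when columns were rescaled by their sum, with or without the 100 most abundant genes. Itgb6, a chain of the integrin that activates latent TGF-beta on epithelium, stood at 21.7 FPKM in Adv-IL-17B and 15.1 FPKM in Adv-EV, and Nrros, which holds latent TGF-beta on myeloid cells, at 22.1 FPKM in Adv-IL-17B and 13.0 FPKM in Adv-EV. Of 37 SMAD cofactors and intracellular regulators, 0 were past the rule, with a median of -0.04. The corepressor gene Tgif1 stood at 34.4 FPKM in Adv-IL-17B and 18.1 FPKM in Adv-EV.

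Markers of cell types also differed between the libraries, and their part in the differences above was not tested. Of 21 endothelial markers, 19 had a ratio below 0 and 0 were past 2-fold, with a median log2 ratio of -0.28 and a summed level of 2288 FPKM in Adv-IL-17B and 2826 FPKM in Adv-EV. Acvrl1 (-0.43), Bmpr2 (-0.47), Smad6 (-0.70) and Bmp6 (-0.67) stood below that median on the same log2 scale. Other BMP-branch members stood above it, among them Id1 (-0.22), Id3 (-0.19), Bmpr1a (-0.18), Smad5 (0.03) and Smad1 (0.29). All of these lay inside the range of the endothelial markers, which ran from -0.86 to 0.34. Of 16 fibroblast markers, 11 had a ratio below 0 and 3 were at least 2-fold lower (Inmt, Npnt and Itga8), with a median of -0.40 and a sum of 1586 FPKM in Adv-IL-17B and 2330.5 FPKM in Adv-EV. The other 5 fibroblast markers had a ratio above 0, among them the collagen genes Col3a1 (0.51), Col1a1 (0.26) and Col1a2 (0.11). Ltbp4, at a log2 ratio of -1.50, lay below the lowest fibroblast marker, Itga8 at -1.18. Smooth muscle and pericyte markers (11 of 12 below 0) had a median of -0.39 and a sum of 256 FPKM in Adv-IL-17B and 320 FPKM in Adv-EV.

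Myeloid markers differed in both directions. All 13 alveolar macrophage markers had a ratio below 0 and 4 were at least 2-fold lower, with a median of -0.62 and a sum of 488 FPKM in Adv-IL-17B and 662 FPKM in Adv-EV. Of 14 markers of monocytes and interstitial macrophages, 12 had a ratio above 0 and 4 were at least 2-fold higher, with a median of 0.67 and a sum of 1933 FPKM in Adv-IL-17B and 1284 FPKM in Adv-EV. Of 18 neutrophil markers, 16 had a ratio above 0 and 8 were at least 2-fold higher, with a median of 0.92 and a sum of 3178 FPKM in Adv-IL-17B and 1767 FPKM in Adv-EV. Stfa1 and Stfa2 of that list were listed at 0 in Adv-EV. With 1 library per group, any higher list is higher in the same library as any higher member. A link between these lists and the members was not tested.

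Among the other lists, the medians were -0.25 for alveolar type 2 cells (9 of 11 below 0, sum 17291 FPKM in Adv-IL-17B and 26737 FPKM in Adv-EV) and -0.33 for alveolar type 1 cells (9 of 10 below 0, 3338 FPKM in Adv-IL-17B and 4273 FPKM in Adv-EV). They were 0.03 for airway epithelium (5 of 10 below 0), 0.20 for mesothelium (1 of 4 below 0), 0.32 for T, B and NK cells (4 of 14 below 0), -0.47 for platelets (8 of 10 below 0) and -0.39 for skeletal and heart muscle (6 of 9 below 0). Red cell markers had a median of -1.51, with 6 of 7 at least 2-fold lower. Genes of the immediate early response had a median of 0.08 (5 of 11 below 0), and those of the clock output and glucocorticoid response one of -0.66 (13 of 18 below 0). Outside neutrophils, no list had a member at 0 among its measured genes.

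**Figure D5:**
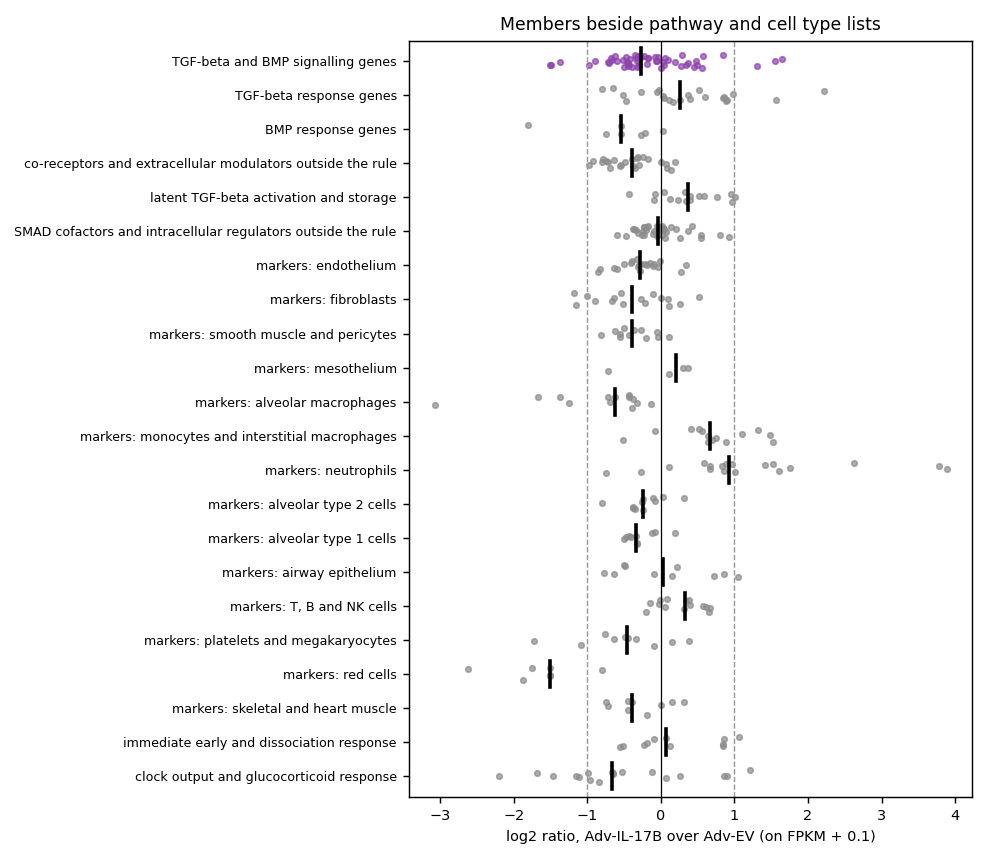
Log2 ratio of Adv-IL-17B over Adv-EV for each measured gene (points) of the TGF-beta and BMP signalling genes (top row, purple) and of 21 other lists (grey), with the median as a black bar and 2-fold as dashed lines. The members' median of -0.27 lies close to those of endothelial (-0.28), alveolar type 2 (-0.25) and alveolar type 1 (-0.33) markers. The monocyte (0.67) and neutrophil (0.92) lists lie to the right.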

How the data were processed

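RNA sequencing of whole lung gave 1 library per group, placed in its group by its title. Per the file headers, the deposited table holds the authors' FPKM values, rounded to 2 decimals. The submitters' processing notes name HISAT, Bowtie2 and the build mm10, without tool versions. The counting step, the annotation, any filter and how strand was treated are not stated there. FPKM values share a total, so a very abundant gene lowers the rest.

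Log2 ratios were taken on FPKM + 0.1 where the mean reached 0.5 FPKM, and genes were called by a size rule of 2-fold. Transcript lengths came from GENCODE mouse release M21 (17632 genes, 98.3%, with all 63 members). Depth came from the step, searched from 0.02 to 0.6, that best made FPKM times length whole in single-transcript genes of 500 to 3000 bases. A fragment was worth 0.181 FPKM at 1 kb in Adv-IL-17B and 0.1815 FPKM in Adv-EV. Of low values, 81.6% in Adv-IL-17B and 81.7% in Adv-EV lay within 0.2 of a whole fragment. Summed by longest transcripts, fragments came to 6040000 in Adv-IL-17B and 6010000 in Adv-EV, above the estimated totals, so depth is approximate. A 0 was read as allowing 3 fragments. These steps were checked on simulated data (Python 3.11.15, numpy 2.4.6, pandas 2.3.3, scipy 1.17.1). The simulation used the same longest-transcript lengths, so it could not show an error in length. Both FPKM values with the ratio and its interval go to members past 2-fold and members whose interval excluded equal levels. They also go to Tgfbr2 and Fstl1, the most abundant of their roles. Other members are given by their FPKM values. The values of 1 member and 1 response gene are not reported here, though both are in the counts. The members and lists were chosen with earlier results of these data known. Alternatives were other pseudocounts, filters, scalings, size rules, depths and lengths.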

Additional observations from a re-analysis of the deposited data

How the results depend on the processing

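No paired analysis was possible because each group has 1 library, and for the same reason no replicate could be left out. None of the 34 members given by the size rule or their interval changed sign under another pseudocount or scaling, and 4 changed side of the 2-fold rule. With a pseudocount of 1 FPKM, Fst (0.86), Gdf10 (-0.99) and Gdf11 (-0.65) came inside 2-fold, which left 2 members higher and 1 lower, and 352 genes higher and 176 lower of all. Id4 came past 2-fold when columns were divided by their sum (-1.0027) or by their sum without the 100 most abundant genes (-1.03), which made 4 members lower. The cause of these moves for Id4 was not tested.

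Without a filter 4 members were higher and 5 lower, and 1148 genes higher and 1012 lower, since genes of few fragments enter. With a filter at a mean of 2 FPKM 2 members were higher and 1 lower, and 337 genes higher and 166 lower. By a size rule of 1.5-fold 4 members were higher and 11 lower, against 1425 genes higher (9.46%) and 1239 lower (8.23%). The members' median log2 ratio ran from -0.33 to -0.21 over all alternatives. Intervals above and below equal levels numbered 8 and 20 at 0.5 times the estimated depth and 15 and 29 at 2 times it. With the shortest transcript they numbered 9 and 23. With a pseudocount of 1 FPKM the BMP response list had a median of -0.32 and 0 genes lower, and the platelet list a median of -0.30. The call of Mmp9 in the latent activation list was lost with that pseudocount and with both rescaled columns. In the co-receptor and modulator list, 1 gene came past 2-fold lower with rescaled columns and 2 with a pseudocount of 0.01 FPKM. Of 21 lists, the medians of airway epithelium and of the immediate early response changed sign under some settings and lay within 0.1 of 0 throughout.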

Other observations

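Genes around Ltbp4 were looked up after its value was seen. On chromosome 7 its neighbours in the table were Numbl, at 8.03 FPKM in Adv-IL-17B and 9.95 FPKM in Adv-EV, and Shkbp1, at 21.0 FPKM in Adv-IL-17B and 16.9 FPKM in Adv-EV. Neither of these flanking genes was past 2-fold. Further out, Blvrb stood at 48.7 FPKM in Adv-IL-17B and 26.8 FPKM in Adv-EV, and Itpkc at 6.06 FPKM in Adv-IL-17B and 4.22 FPKM in Adv-EV. Sptbn4 stood at 0.19 FPKM in Adv-IL-17B and 0.11 FPKM in Adv-EV. The short gene Mir1191 was listed at 0 in Adv-IL-17B and at 4.2 FPKM in Adv-EV.

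Elastic fibre genes were also chosen after the value of Ltbp4 was seen. Fbln5, which encodes the elastic fibre protein fibulin-5 that LTBP4 binds, stood at 12.5 FPKM in Adv-IL-17B and 22.4 FPKM in Adv-EV, 1.79-fold lower (interval 1.58 to 2.02). Eln, the elastin gene, stood at 86.7 FPKM in Adv-IL-17B and 73.75 FPKM in Adv-EV, 1.18-fold higher (interval 1.10 to 1.26). Efemp2, the gene of fibulin-4, stood at 43.0 FPKM in Adv-IL-17B and 38.1 FPKM in Adv-EV, and its interval included equal levels.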
